A study of Arabidopsis thaliana with 15 samples.

Results

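The comparison described here sets rosette leaves of mef37-1, an Arabidopsis thaliana line with a T-DNA insertion in AT5G08305 (MEF37), against leaves of the parental accession Col-0. It was chosen by sample label and holds 6 of the 15 leaf RNA-seq libraries of the series, 3 labelled mef37-1 and 3 labelled Col-0. The other 9 libraries come from 3 more insertion lines, pgn, at3g50420 and at5g10690, and are used only where they show what mef37-1 shares with them. Plants of mef37-1 and of Col-0 were untreated and 25.5 days old, and were grown with 16 h of light at 20 °C and 8 h of dark at 18 °C. The other 3 lines had the same light and temperatures. Plants of pgn and at3g50420 were also 25.5 days old, while no age was available for at5g10690. The mef37-1 line rests on 1 insertion allele. Nothing in the labels says that the 3 libraries of a line came from separate plants or cultures, so p-values measure only the spread between these libraries, which may be technical.

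MEF37 is a pentatricopeptide repeat (PPR) protein of the E+ class. Such proteins bind organelle transcripts one base per repeat and direct the conversion of single cytidines to uridines, together with partners such as DYW2, which brings the catalytic domain, and the MORF proteins, which hold the editing complex together. In leaves, mitochondrial transcripts edited in this way encode subunits of the respiratory chain, ribosomal proteins and factors of cytochrome c maturation. The question asked here is which genes differ in transcript level between leaves that carry the insertion and leaves that do not.

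The 6 libraries held from 21899344 to 28450968 counts in mef37-1 and from 23574511 to 30901304 in Col-0. Plastid genes took 59.9 to 62.4% of the counts in mef37-1 and 59.8 to 62.3% in Col-0. The tissue label was borne out by the markers: 22 nuclear photosynthesis genes together reached 50240 to 51980 CPM (counts scaled to the library size) in mef37-1, and no marker of flowers or seeds (8 genes) exceeded 2 counts in any of the 6 libraries. Col-0 replicate 3 stood apart from the other 5 libraries. The same 22 photosynthesis genes reached 44440 and 49680 CPM in Col-0 replicates 1 and 2 but 27650 CPM in Col-0 replicate 3. Replicate 3 was also the lowest of its line in pgn (36810 CPM), at3g50420 (47710 CPM) and at5g10690 (19950 CPM), but not in mef37-1.

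MEF37 itself (chromosome 5, 2669944 to 2671782, minus strand, TAIR10) was read at low depth. It had 17, 20 and 12 counts in the libraries labelled mef37-1, against 8, 8 and 21 counts in the libraries labelled Col-0. The groups overlapped, and the count was not lower under the mef37-1 label: the log2 fold change of mef37-1 over Col-0 was 0.64 (SE 0.46, edgeR adjusted p = 0.978). The count runs over all exons of the gene, so reads on both sides of an insertion enter it. Because the count gives no check of the label, mef37-1 stands throughout for the libraries labelled mef37-1.

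Of 17561 genes with enough reads, 2 passed an adjusted p of 0.05 (Benjamini-Hochberg) in edgeR's quasi-likelihood test with the replicate number as a block, which is 0.0114% of the genes tested. MAF5, a flowering repressor of the FLC clade, was higher in mef37-1, and MRD1, a gene named for its lower level in the methionine-accumulating mutant mto1, was lower, 1 gene or 0.00569% in each direction. The next smallest adjusted p was 0.395, for MAF4, the neighbour of MAF5. At an unadjusted p under 0.05, 638 genes (3.63%) stood out, 295 higher and 343 lower, where a uniform spread of p-values would put 878. Of these, 616 (3.51%) had the same sign in all 3 same-numbered pairs of libraries, 285 (1.62%) higher by 0.29 to 5.34 on the log2 scale (median 0.57) and 331 (1.88%) lower (median −0.57, down to −5.99). These 616 genes are described below as the leading genes; they are not calls. The groups did not overlap for 1015 genes (5.78%), 383 higher (2.18%) and 632 lower (3.6%). For 3 against 3 exchangeable libraries such separation has a probability of 0.1 per gene, so it is no mark of a shift by itself. Without the replicate block 1 gene passed, MAF5 (adjusted p = 0.0466), while MRD1 did not (adjusted p = 0.223).

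**Figure D1:**
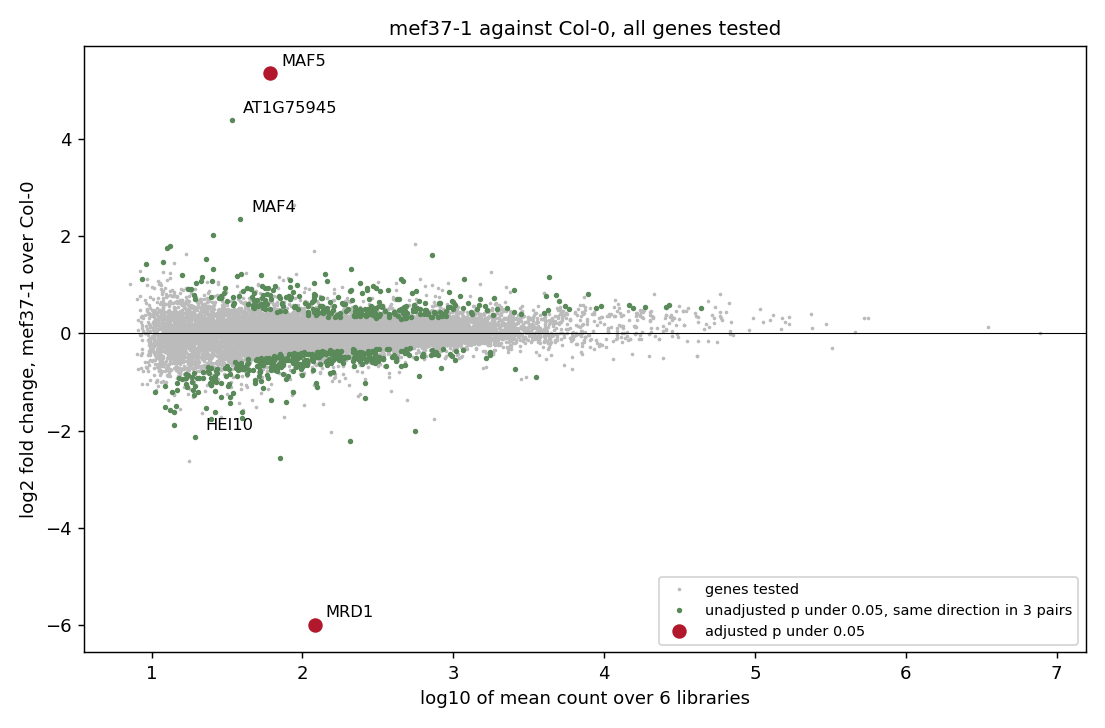
Log2 fold change of mef37-1 over Col-0 (vertical) against the log10 mean count over the 6 libraries (horizontal) for the 17561 genes tested; green points have an unadjusted p under 0.05 and the same sign in all 3 pairs, red points an adjusted p under 0.05. MAF5 at 5.34 and MRD1 at −5.99 lie far outside the cloud, with MAF4, HEI10 and AT1G75945 as the nearest named genes.

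MAF5 and MAF4 are the last members of a tandem array of MADS-box genes, MAF2 to MAF5, that lie head to tail on chromosome 5. Their products resemble FLC, which represses the floral integrators FT and SOC1, and the genes differ in how they respond to cold. The 250 bases before each gene start are shown because the members of the array behaved unequally. They are from the RefSeq assembly TAIR10.1, plus strand, at chr5:25997254-25997503 for MAF5, chr5:25991943-25992192 for MAF4, chr5:25987059-25987308 for MAF3 and chr5:25982004-25982253 for MAF2, 5′ to 3′, and no annotated exon lies in them. Capitals mark exact runs of at least 12 bases that MAF5 shares with MAF4, and that MAF3 shares with MAF2.
MAF5: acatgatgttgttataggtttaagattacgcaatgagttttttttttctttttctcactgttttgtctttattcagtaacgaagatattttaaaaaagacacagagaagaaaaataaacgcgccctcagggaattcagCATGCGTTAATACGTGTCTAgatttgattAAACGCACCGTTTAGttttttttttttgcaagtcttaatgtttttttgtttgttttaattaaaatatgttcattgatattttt
MAF4: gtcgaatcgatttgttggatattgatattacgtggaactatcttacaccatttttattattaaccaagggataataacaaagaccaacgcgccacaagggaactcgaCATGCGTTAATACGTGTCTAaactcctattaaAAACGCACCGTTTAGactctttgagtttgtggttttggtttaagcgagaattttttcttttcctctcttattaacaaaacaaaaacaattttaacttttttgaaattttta
MAF3: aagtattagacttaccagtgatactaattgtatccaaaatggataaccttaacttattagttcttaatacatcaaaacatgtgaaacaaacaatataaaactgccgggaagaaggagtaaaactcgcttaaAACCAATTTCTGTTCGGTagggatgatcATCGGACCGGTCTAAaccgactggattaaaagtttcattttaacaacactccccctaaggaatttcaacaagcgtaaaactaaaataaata
MAF2: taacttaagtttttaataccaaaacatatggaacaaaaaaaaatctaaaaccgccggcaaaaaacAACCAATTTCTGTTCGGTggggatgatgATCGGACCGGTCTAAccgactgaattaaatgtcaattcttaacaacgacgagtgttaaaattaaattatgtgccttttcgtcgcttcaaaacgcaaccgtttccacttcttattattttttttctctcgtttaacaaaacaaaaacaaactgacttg

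MAF5 and MAF4 share CATGCGTTAATACGTGTCTA and AAACGCACCGTTTAG, in the same order, and neither run occurs before MAF3 or MAF2. Among the upstream windows of 17395 nuclear genes tested here (genes with too few reads were not searched), 2 (0.0115%) held the first run on either strand and 2 held the second, those of MAF5 and MAF4. MAF4 also shares a run of 18 bases with MAF2 that is not marked. The runs were sought after the values were seen and are a description of the sequences.

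MAF5 (chromosome 5, 25997504 to 26002619, plus strand) had 145, 118 and 94 counts in mef37-1, against 6, 1 and 3 counts in Col-0. Each mef37-1 library was far above every Col-0 library, where MAF5 was near the limit of detection. The level was 4.88 ± 0.85 CPM in mef37-1 and 0.111 ± 0.070 CPM in Col-0 (SD, n = 3 each), a log2 fold change of 5.34 (SE 0.31, edgeR adjusted p = 0.0285). MAF4 (chromosome 5, 25992193 to 25996202, plus strand) had 76, 63 and 51 counts in mef37-1, against 17, 13 and 12 counts in Col-0. It too was separate in every library, at 2.60 ± 0.41 CPM in mef37-1 and 0.510 ± 0.093 CPM in Col-0 (SD, n = 3 each), but its log2 fold change of 2.35 (SE 0.25) missed the threshold (adjusted p = 0.395). With all 15 libraries in 1 fit, MAF4 passed as well (adjusted p = 0.0435).

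The other members of the clade had small log2 fold changes. MAF3 had 118, 120 and 88 counts in mef37-1, against 169, 116 and 112 in Col-0, and MAF2 had 253, 249 and 202 in mef37-1, against 325, 207 and 258 in Col-0. Their log2 fold changes were −0.10 (SE 0.15) and 0.03 (SE 0.13). MAF1 (FLM), on chromosome 1, had 443, 561 and 416 counts in mef37-1 and 635, 307 and 640 in Col-0, and SVP, the MADS partner of FLC, was at 0.02 (SE 0.15). FLC itself was read weakly and unevenly, with 20, 12 and 2 counts in mef37-1 and 43, 7 and 0 in Col-0. Of the 7 genes listed, the 6 of the clade and SVP, 2 were higher at an unadjusted p under 0.05 and none lower, with a median log2 fold change of 0.03 beside 0.00 over all genes. Among the targets of the clade, SOC1 had a log2 fold change of −0.12 (SE 0.25), and FT had 2, 1 and 0 counts in mef37-1 and 5, 3 and 11 in Col-0, too few to test.

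Both calls depend on which libraries are in the fit. They held without mef37-1 replicate 1 (adjusted p = 0.032 for MAF5 and 0.00684 for MRD1), mef37-1 replicate 2 (0.0404 for each) or Col-0 replicate 1 (0.0158 and 0.00756). Without mef37-1 replicate 3, Col-0 replicate 2 or Col-0 replicate 3, the adjusted p of MAF5 was 0.329, 0.0523 and 0.22 and that of MRD1 0.329, 0.0698 and 0.248, although over all sets with 1 library left out the log2 fold changes stayed between 5.09 and 5.73 for MAF5 and between −6.86 and −5.51 for MRD1.

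**Figure D2:**
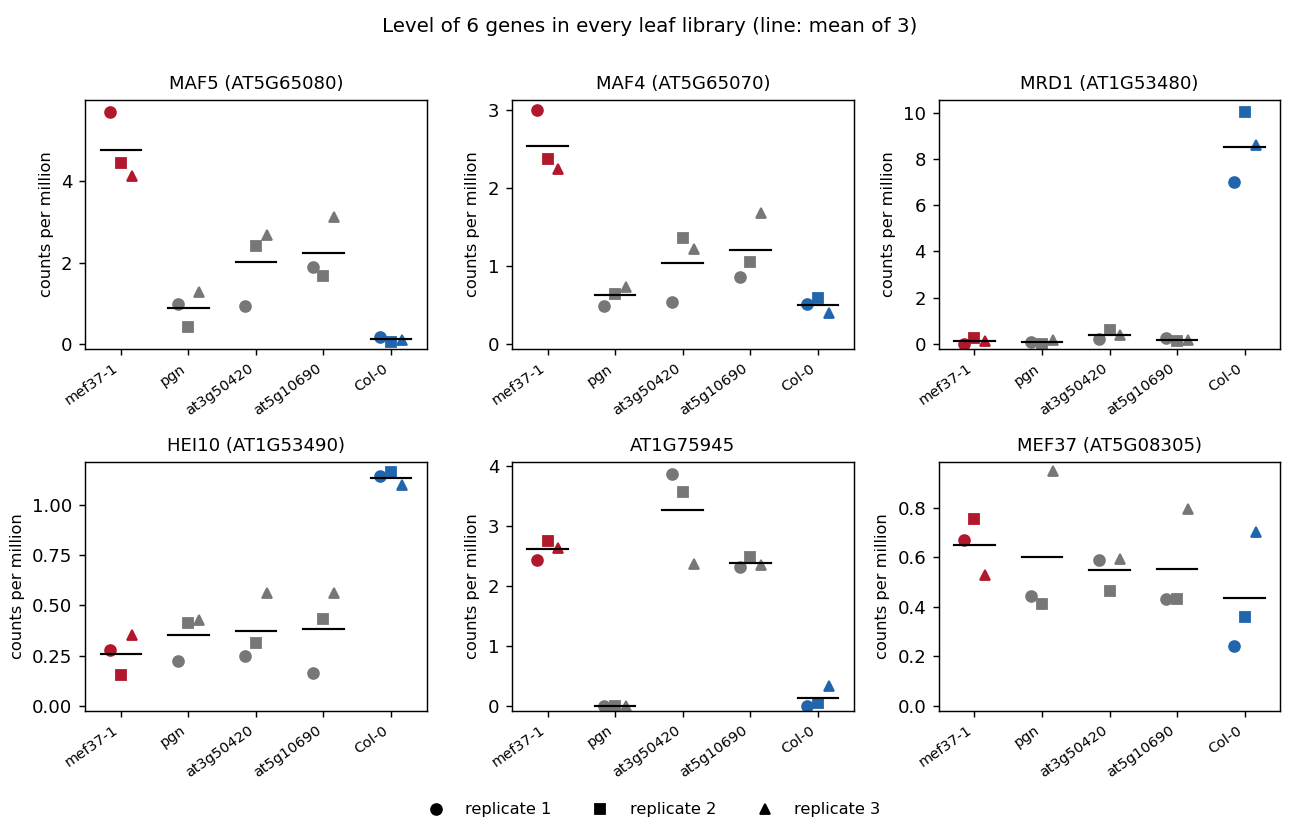
CPM of MAF5, MAF4, MRD1, HEI10, AT1G75945 and MEF37 in each library (vertical axis from 0, its own scale per gene), with mef37-1 on the left, the 3 other insertion lines in grey and Col-0 on the right; symbols give the replicate number and lines the mean of 3. The mef37-1 libraries lie above Col-0 for MAF5, MAF4 and AT1G75945 and below Col-0 for MRD1 and HEI10, while MEF37 overlaps.

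The second called gene lies on chromosome 1, where MRD1 (19963047 to 19964712, minus strand) overlaps the start of HEI10 (19963267 to 19966952, plus strand), which encodes the E3 ligase that sets crossover numbers in meiosis. Reads were counted by strand, so the overlapping genes were told apart by it. MRD1 had 0, 7 and 3 counts in mef37-1, against 232, 224 and 257 counts in Col-0. It was thus nearly absent from every mef37-1 library and steady in Col-0, at 0.135 ± 0.135 CPM in mef37-1 and 8.74 ± 1.55 CPM in Col-0 (SD, n = 3 each). The log2 fold change was −5.99 (SE 0.42, edgeR adjusted p = 0.0462). HEI10 had 7, 4 and 8 counts in mef37-1, against 38, 26 and 33 in Col-0. These groups did not overlap either, and the log2 fold change was −2.13 (SE 0.38), but the adjusted p was 0.978. The genes on both sides had small log2 fold changes: MSL4, a mechanosensitive channel, had a log2 fold change of 0.03 (SE 0.23), MUM4, a rhamnose synthase of seed mucilage, 0.10 (SE 0.17), and MPK18, a MAP kinase, 0.01 (SE 0.15).

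**Figure D3:**
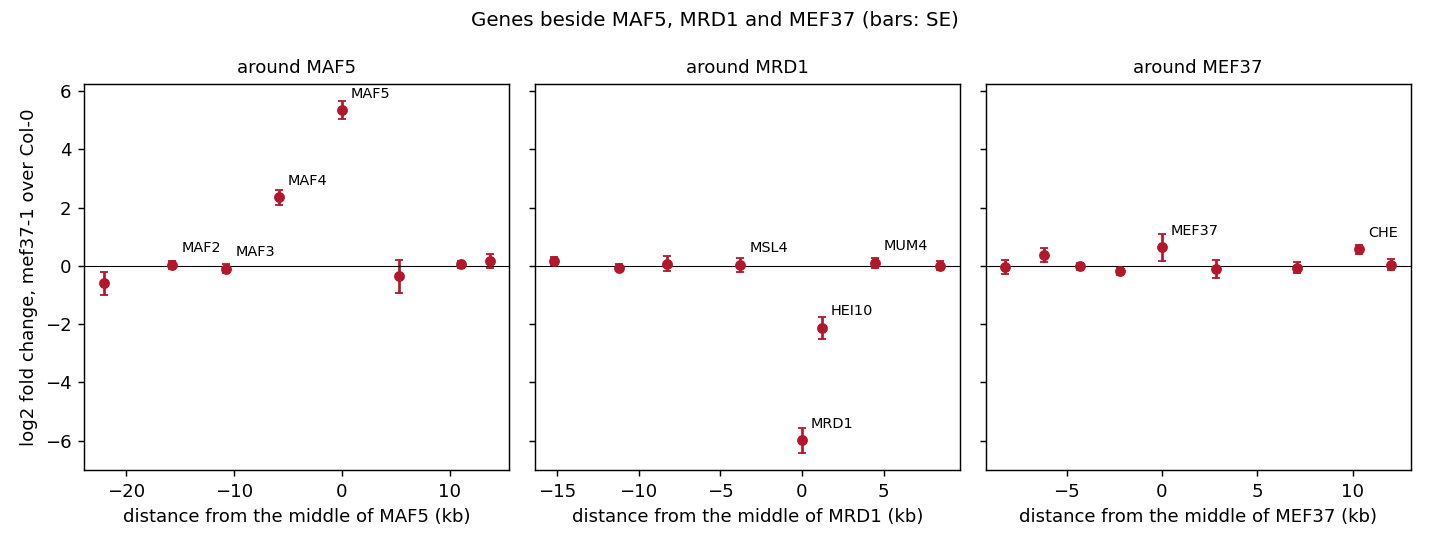
Log2 fold change of mef37-1 over Col-0 with its SE (vertical) for the tested genes among the 5 annotated neighbours on each side, against the distance of gene middles from that of MAF5, MRD1 and MEF37 (horizontal, kb). Beside MAF5 and MRD1, the points farthest from 0 in their panels are MAF4 at 2.35 and HEI10 at −2.13, and around MEF37 CHE stands at 0.57.

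The other insertion lines were read in the same way to see which of these shifts belong to mef37-1. MRD1 was as low there, at 0 to 5 counts in pgn, 4 to 16 in at3g50420 and 3 to 5 in at5g10690, and the log2 fold changes over Col-0 were −6.50, −4.43 and −5.52 (adjusted p = 0.0102, 0.0144 and 0.00146), in comparisons where 0.00571%, 0.00568% and 0.0114% of genes passed. HEI10 had 3 to 19 counts over the 9 libraries. All 4 comparisons share the same Col-0 libraries. After normalization MAF5 was between mef37-1 and Col-0, with 9 to 42 counts in pgn, 19 to 86 in at3g50420 and 35 to 106 in at5g10690. Its log2 fold change over Col-0 was 3.96 in at3g50420 (SE 0.58, edgeR adjusted p = 0.657) and 4.25 in at5g10690 (SE 0.42, adjusted p = 0.0938). A large part of the rise was thus shared, and MAF5 was not tested in pgn. MAF4 had 11 to 24, 11 to 39 and 16 to 57 counts in the 3 lines. Set directly against the mean of the other 3 lines, mef37-1 had a log2 fold change of 1.63 in MAF5 (SE 0.28, adjusted p = 0.338) and of 1.497 in MAF4 (SE 0.24, adjusted p = 0.246), so that neither difference passed. MRD1 had too few reads for that fit; with no filter on low counts the difference was −0.53 (SE 0.77, adjusted p = 1).

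In that comparison 3 of 18162 genes (0.0165%) passed, all higher in mef37-1, and 410 (2.26%) had an unadjusted p under 0.05. AT5G10690, which carries the insertion of the at5g10690 line, had 237, 263 and 266 counts in mef37-1 and 1, 3 and 4 in at5g10690. AT1G75945, an uncharacterized protein-coding gene, had 62, 73 and 60 counts in mef37-1, 0 in each pgn library, 76 to 92 in at3g50420 and 43 to 80 in at5g10690, against 0, 1 and 10 counts in Col-0. Its groups were separate in mef37-1 and Col-0, but the log2 fold change of 4.39 (SE 0.67) did not pass (adjusted p = 0.978). AT1G67105, a non-coding RNA gene, had 73, 78 and 86 counts in mef37-1, 8 to 37 in the 3 other lines, and 32, 25 and 102 in Col-0, where replicate 3 exceeded every mef37-1 library.

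Around the insertion, 8 of the 10 nearest annotated genes had enough reads. CHE (AT5G08330), a TCP factor that represses the clock gene CCA1, had 329, 420 and 400 counts in mef37-1, against 321, 279 and 273 in Col-0. After normalization the groups did not overlap, and the log2 fold change was 0.57 (SE 0.16, adjusted p = 0.978). CHE was also above Col-0 in lines with insertions in other genes, by 0.56 in pgn, 0.75 in at3g50420 and 0.16 in at5g10690. Set against the mean of those lines, mef37-1 was at 0.09 (SE 0.16), so the shift is not particular to mef37-1. The other 7 neighbours of MEF37 lay between −0.18 and 0.37. They include HEMC, the porphobilinogen deaminase of chlorophyll synthesis, at 0.37 (SE 0.24), YLS8 at −0.02 (SE 0.12), AT5G08300 at −0.18 (SE 0.13) and AT5G08310, the next PPR gene on the strand, at −0.11 (SE 0.31).

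Leading genes were named by size, as the 12 highest and the 12 lowest with at least 20 counts on average. None but MAF5 and MRD1 passed the adjusted threshold. Beside MAF5, AT1G75945 and MAF4, several of the higher ones varied more between replicate numbers than between genotypes. TPS04, the geranyllinalool synthase of an insect-induced volatile, had 2299, 90 and 47 counts in mef37-1, against 1862, 16 and 4 in Col-0. Replicate 1 was high in both lines, and mef37-1 exceeded Col-0 within each number (log2 fold change 1.61, SE 0.47). The same form was seen in MSRB7, a methionine sulfoxide reductase, with 470, 20 and 4 counts in mef37-1 and 357, 1 and 0 in Col-0. MAPKKK19, a MAP kinase kinase kinase, had 102, 10 and 11 counts in mef37-1 and 19, 4 and 7 in Col-0 (log2 fold change 2.02, SE 0.47). MDHAR (AT3G09940), which regenerates ascorbate, had 785, 65 and 13 counts in mef37-1 and 364, 16 and 16 in Col-0 (log2 fold change 1.33, SE 0.28). In the third pair MDHAR was nearly level. The groups of these 4 genes overlap when replicate numbers are pooled.

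MYB15, a regulator of lignin and cold genes, had 123, 21 and 8 counts in mef37-1, against 72, 7 and 4 in Col-0 (log2 fold change 1.23, SE 0.26). UGT76B1, a glucosyltransferase of the immune signal isoleucic acid, was at 1.32 (SE 0.52) and AT3G19030 at 1.205 (SE 0.43). Beside MAF5, AT1G75945 and MAF4, those without overlap were SAUR20, an auxin-induced growth gene, with 32, 62 and 54 counts in mef37-1, against 35, 27 and 12 in Col-0, and AT1G07135, a glycine-rich protein, with 18, 39 and 42 counts in mef37-1, against 19, 15 and 4 in Col-0. For both, the largest gap was in the third pair, where Col-0 was lowest.

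Among the 12 lowest, GolS2, AT1G34060, BETA-VPE, NAC3 and HAI2 had their highest count in Col-0 replicate 3, as did MRD1 and PDF1.2. GolS2, the galactinol synthase of drought-stressed leaves, had 31, 5 and 73 counts in mef37-1, against 57, 11 and 1066 in Col-0. AT1G34060, a relative of the tryptophan aminotransferases, had 13, 2 and 18 counts in mef37-1, against 26, 2 and 368 in Col-0. The third pair differed most for both, and AT1G34060 was nearly level in the second. BETA-VPE, a vacuolar protease, had 21, 24 and 49 counts in mef37-1 and 81, 22 and 271 in Col-0, and NAC3 (AT3G29035), a senescence-related NAC factor, had 11, 12 and 16 in mef37-1 and 31, 17 and 150 in Col-0. HAI2, a PP2C phosphatase of abscisic acid signalling, had 33, 4 and 15 counts in mef37-1 and 67, 19 and 102 in Col-0. Without Col-0 replicate 3 the log2 fold change was −0.73 for GolS2, −0.54 for AT1G34060, −0.91 for BETA-VPE, −0.93 for NAC3 and −1.17 for HAI2, against −2.22, −2.57, −1.41, −1.74 and −1.61 with it.

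PDF1.2, LUP5, HMT-1 and AT1G74010 differed most in the first or second pair. PDF1.2, the defensin used as a marker of joint ethylene and jasmonate signalling, had 119, 52 and 647 counts in mef37-1, against 754, 479 and 1318 in Col-0 (log2 fold change −2.02, SE 0.50, adjusted p = 0.978). LUP5, a triterpene synthase, had 10, 10 and 5 counts in mef37-1, against 92, 10 and 21 in Col-0. HMT-1, a homocysteine methyltransferase, had 13, 4 and 12 counts in mef37-1, against 69, 13 and 26 in Col-0. After normalization the groups of NAC3, LUP5 and HMT-1 did not overlap. AT1G74010 was at −1.62 (SE 0.33), AT3G28270 at −1.42 (SE 0.49) and AT1G02470 at −1.37 (SE 0.38), each with its highest count in Col-0 replicate 1, though AT3G28270 and AT1G02470 differed most in the third pair.

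**Figure D4:**
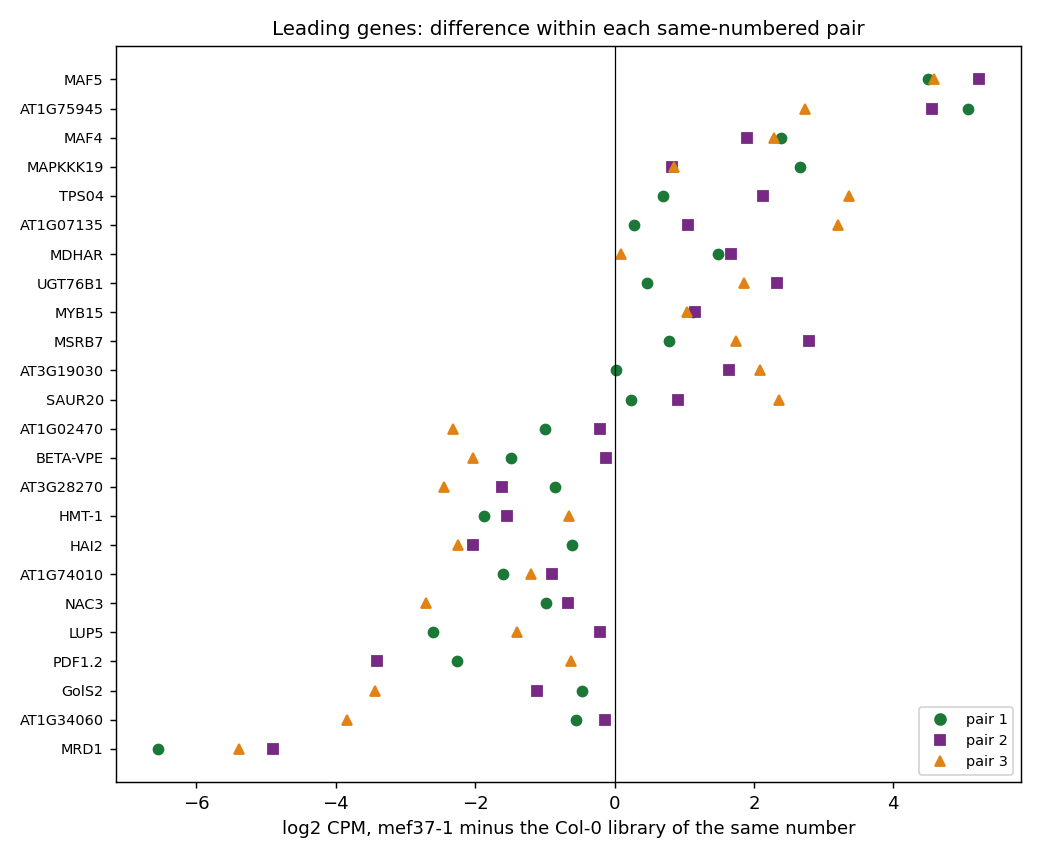
Difference in log2 CPM between each mef37-1 library and the Col-0 library of the same number (horizontal) for the 12 highest and 12 lowest leading genes (vertical, ordered by fold change), with a symbol per pair. MAF5 and MRD1 have 3 large differences each, whereas GolS2 and AT1G34060 have one pair far from the other two.

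Mitochondrial function was examined through lists of genes, described by counts beside the background of 1.68% higher and 1.95% lower over all genes. These counts, here and in the lists that follow, often changed when 1 library was left out, and both libraries of a pair gave nearly the same value when left out singly. The background at an unadjusted p under 0.05 moved too. Without Col-0 replicate 2 it was 718 higher and 667 lower of 18067 genes. It was 372 and 257 of 17768 without Col-0 replicate 1, and 231 and 297 of 17868 without Col-0 replicate 3. With no replicate block it was 79 and 168 of 17561, and against the other 3 lines 199 and 211 of 18162. In those last fits a 0 in a short list says little. Of 18 tested genes of organelle RNA editing, 3 were lower at an unadjusted p under 0.05 and 0 higher, with a median log2 fold change of −0.19 beside 0.00 over all genes. MORF1, which acts in mitochondria, had 82, 107 and 95 counts in mef37-1, against 151, 133 and 221 in Col-0 (log2 fold change −0.63, SE 0.15). MORF8 (RIP1), which acts in both organelles, had 654, 711 and 493 counts in mef37-1, against 1020, 727 and 999 in Col-0 (−0.39, SE 0.14), and DYW2 had 124, 129 and 113 in mef37-1, against 200, 153 and 209 in Col-0 (−0.43, SE 0.14). Among all 638 genes at that p, 616 had the same sign in every pair, and 234 of these 616 did not overlap. MORF1, MORF8 and DYW2, named by that p, were each lower in every pair, which therefore adds little. They did not overlap after normalization, but none passed the adjusted threshold (adjusted p = 0.978 for each). Leaving out a library of the first pair gave 1 lower and 0 higher, of the second pair 2 lower and 0 higher, and of the third pair 1 lower and 1 higher. Against the other 3 lines, edgeR gave 0 in either direction.

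None of the 23 nuclear genes for subunits of respiratory complex I reached an unadjusted p under 0.05 by edgeR. They lay between −0.12 and 0.28, with a median of 0.03. Of the 14 tested genes of the mitochondrial stress response none did so either with all 6 libraries (2 were lower without Col-0 replicate 2 and 1 higher without Col-0 replicate 1): AOX1A, the alternative oxidase induced when the cytochrome pathway is blocked, had 792, 648 and 585 counts in mef37-1, against 1237, 530 and 991 in Col-0 (−0.19, SE 0.14), and ANAC017, which carries the signal to the nucleus, was at −0.12 (SE 0.14). NDB2, an external NADH dehydrogenase, was at −0.33 (SE 0.14).

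Transcripts of the mitochondrial genome took 1.07 ± 0.03% of the counts in mef37-1 and 1.21 ± 0.17% in Col-0 (SD, n = 3 each), a difference of −0.134 percentage points (two-sided exact permutation test, p = 0.4, smallest possible 0.1). Of 44 mitochondrial genes tested, none reached an unadjusted p under 0.05 and the median log2 fold change was −0.06. The 27 with at least 1000 counts on average lay between −0.25 and 0.13. Of 121 plastid genes, 6 were higher and none lower, with a median of 0.23. Without Col-0 replicate 3, 1 was higher and 3 lower (median 0.04), without Col-0 replicate 2, 25 were higher and 0 lower (median 0.45), and without Col-0 replicate 1 none was past that p by edgeR. Levels of transcripts do not show whether they were edited, and editing was not analysed here.

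Of 22 tested genes of jasmonate synthesis and response, 4 were higher and 2 lower at an unadjusted p under 0.05, and the median was 0.28. VSP2, a vegetative storage protein induced by wounding, had 3613, 142 and 314 counts in mef37-1, against 2851, 52 and 149 in Col-0 (log2 fold change 1.11, SE 0.19, adjusted p = 0.978), and it passed in DESeq2 (adjusted p = 0.0186). TAT3, a tyrosine aminotransferase of the same response, had 7818, 403 and 186 counts in mef37-1, against 6425, 189 and 105 in Col-0. AOC3, an allene oxide cyclase, and JAZ5, a repressor of jasmonate signalling, were at 0.69 (SE 0.27) and 0.50 (SE 0.17). The lower ones were PDF1.2 and ORA59, the ERF factor that activates it, with 66, 18 and 97 counts in mef37-1, against 76, 52 and 410 in Col-0. Replicate 1 had by far the most VSP2 and TAT3 in both lines. Without replicate 1 of both lines the median of the list was 0.03, with 3 higher and 3 lower, and without Col-0 replicate 2 it was 0.56, with 10 higher and 2 lower. Over all genes, 718 were higher and 667 lower of 18067 without Col-0 replicate 2. With no replicate block, and also with the other 3 lines as reference, edgeR gave 0 members in either direction. Over all genes those fits had 79 higher and 168 lower of 17561, and 199 and 211 of 18162, so 0 of so few members says little.

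Of 15 tested genes of rapid stress and touch, 5 were higher and 0 lower at an unadjusted p under 0.05, with a median of 0.53. WRKY40, a repressor of defence genes, had 249, 38 and 87 counts in mef37-1, against 101, 34 and 35 in Col-0 (1.22, SE 0.36). CML38, a calmodulin-like protein, had 241, 62 and 27 in mef37-1, against 182, 18 and 20 in Col-0 (1.00, SE 0.22). ERF5 was at 0.63, ERF6 at 0.58 and the zinc finger factor ZAT10 at 0.65, and none of the list passed the adjusted threshold. Without Col-0 replicate 3, 2 members had an unadjusted p under 0.05 and the median was 0.23. The count by edgeR was 0 in either direction with no replicate block, and likewise with the other 3 lines as reference.

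Of 25 tested genes of abscisic acid, dehydration and cold, 3 were lower and 0 higher at an unadjusted p under 0.05, with a median of −0.29. LTI30, a dehydrin, had 278, 54 and 49 counts in mef37-1, against 846, 74 and 264 in Col-0 (−1.33, SE 0.25). HAB1, a PP2C phosphatase like HAI2, was at −0.51 (SE 0.18). RD29A, a widely used reporter of dehydration, had 3789, 2814 and 3903 counts in mef37-1 and 4839, 3551 and 13709 in Col-0 (−0.65, SE 0.29), with Col-0 replicate 3 far above the rest. Without that library 1 member was lower and 1 higher, with a median of −0.08, and without Col-0 replicate 1 or 2 there were 5 lower. Dropping the replicate block left 0 in either direction by edgeR, and the other 3 lines as reference gave 2 lower and 0 higher.

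Of 7 tested genes of lipid transfer and AZI1-like proteins, 1 was lower and 0 higher at an unadjusted p under 0.05, while 5 had a positive log2 fold change and the median was 0.23. The lower one was LTP3, a lipid transfer protein, with 13, 0 and 0 counts in mef37-1, against 69, 0 and 24 in Col-0 (−2.61, SE 0.72). Without Col-0 replicate 1 there were 2 higher and 1 lower (median 0.67), and without Col-0 replicate 2 there were 3 lower and 0 higher (median −0.24). No block left 0 in either direction by edgeR, and the other 3 lines as reference gave 3 higher and 0 lower.

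The SAUR genes clustered on chromosome 1, which are induced by auxin and act in cell expansion, had log2 fold changes between 0.60 and 0.93 in all 6 tested, 5 of them with an unadjusted p under 0.05 (median 0.67). SAUR67 had 53, 85 and 75 counts in mef37-1, against 54, 43 and 29 in Col-0, and SAUR64 had 59, 72 and 70 in mef37-1, against 54, 42 and 54 in Col-0. These genes are similar in sequence and reads with several positions were counted, so their values are not independent. Without Col-0 replicate 3, and likewise without mef37-1 replicate 3, none of the 6 had an unadjusted p under 0.05 and the median was 0.52 and 0.53. Without Col-0 replicate 2 there were 2. By edgeR, 4 were higher with no replicate block, but 0 in either direction with the other 3 lines as reference (median 0.19). Over Col-0, SAUR67 was at 0.97 in pgn, 1.19 in at3g50420 and 0.30 in at5g10690. SAUR64 was at 0.49, 0.77 and −0.10 in these lines.

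Of 15 tested genes of nitrate assimilation, 3 were higher and 0 lower at an unadjusted p under 0.05, with a median of 0.40. NIR1, nitrite reductase, had 234, 1368 and 612 counts in mef37-1, against 291, 666 and 383 in Col-0 (0.66, SE 0.21). UPM1, which makes the sirohaem cofactor of that enzyme, was at 0.43 (SE 0.13). BT2, a nitrate-induced adaptor protein, had 22, 519 and 33 counts in mef37-1, against 34, 109 and 0 in Col-0 (1.68, SE 0.67). Replicate 2 was the highest for NIR1 and BT2 in both lines. Without mef37-1 replicate 2 or Col-0 replicate 2 the count was 0 higher and 1 lower by edgeR (median 0.39), and without mef37-1 replicate 1 or Col-0 replicate 1 it was 6 higher and 0 lower (median 0.51). It was 0 in either direction with no replicate block, and 1 higher and 0 lower with the other 3 lines as reference.

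All 22 nuclear photosynthesis genes had a positive log2 fold change, with a median of 0.47, but 1 had an unadjusted p under 0.05, LHCB2.3, an antenna protein of photosystem II, with 9185, 10896 and 7537 counts in mef37-1, against 9342, 7201 and 2995 in Col-0. The median was 0.20 without Col-0 replicate 3, the library low in this list. In glucosinolate synthesis, MYB28, the regulator of the methionine-derived group, was at 0.31 (SE 0.12) and CYP79B3, which starts the tryptophan-derived group, at 0.51 (SE 0.17), 2 of 20 tested. That count was 0 without mef37-1 replicate 1 or Col-0 replicate 1 (median −0.04) and 4 without Col-0 replicate 3. It was also 0 by edgeR with no replicate block and with the other 3 lines as reference. Of 5 tested markers of single leaf cell types, 3 had a positive and 2 a negative log2 fold change (median 0.31). Those with an unadjusted p under 0.05 were KAT1 and MYB60 of guard cells, at 0.48 (SE 0.14) and 0.53 (SE 0.20), and GL2 of trichomes. GL2 had 7, 11 and 24 counts in mef37-1, against 20, 18 and 69 in Col-0 (−1.07, SE 0.28). Without Col-0 replicate 3 none of the 5 markers tested had an unadjusted p under 0.05 by edgeR. In bulk leaves, fewer cells of a type and less RNA per cell cannot be told apart.

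With all 6 libraries, no member at an unadjusted p under 0.05 was found by edgeR's quasi-likelihood test in the lists of salicylic acid defence (15 tested), copper (11), iron (10) and phosphate (9) homeostasis, sugar starvation (19), flavonoid synthesis (9), heat shock (7), senescence (10) and cell division (12). PR1, the marker of salicylic acid defence, had 848, 828 and 84 counts in mef37-1 and 4272, 62 and 211 in Col-0, with a log2 fold change of −0.10 (SE 1.08). Leaving out 1 library gave such members in several of these lists. Over all genes the number also rose without Col-0 replicate 2, to 718 higher and 667 lower of 18067, from 295 and 343 of 17561. Without Col-0 replicate 2, 5 were lower in salicylic acid defence, 3 lower in senescence and 3 higher in cell division, and without Col-0 replicate 1, 4 were higher in sugar starvation and 5 lower in flavonoid synthesis, while without Col-0 replicate 3, 3 were higher in copper homeostasis. The flavonoid list had the lowest median, −0.51, but it was 0.20 without Col-0 replicate 3, 0.18 without mef37-1 replicate 3 and −1.15 without mef37-1 replicate 1. CHS, the first enzyme of the pathway, had 320, 243 and 152 counts in mef37-1, against 385, 181 and 755 in Col-0, where replicate 3 was again the highest. CHE was the only one of 19 clock genes with an unadjusted p under 0.05.

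**Figure D5:**
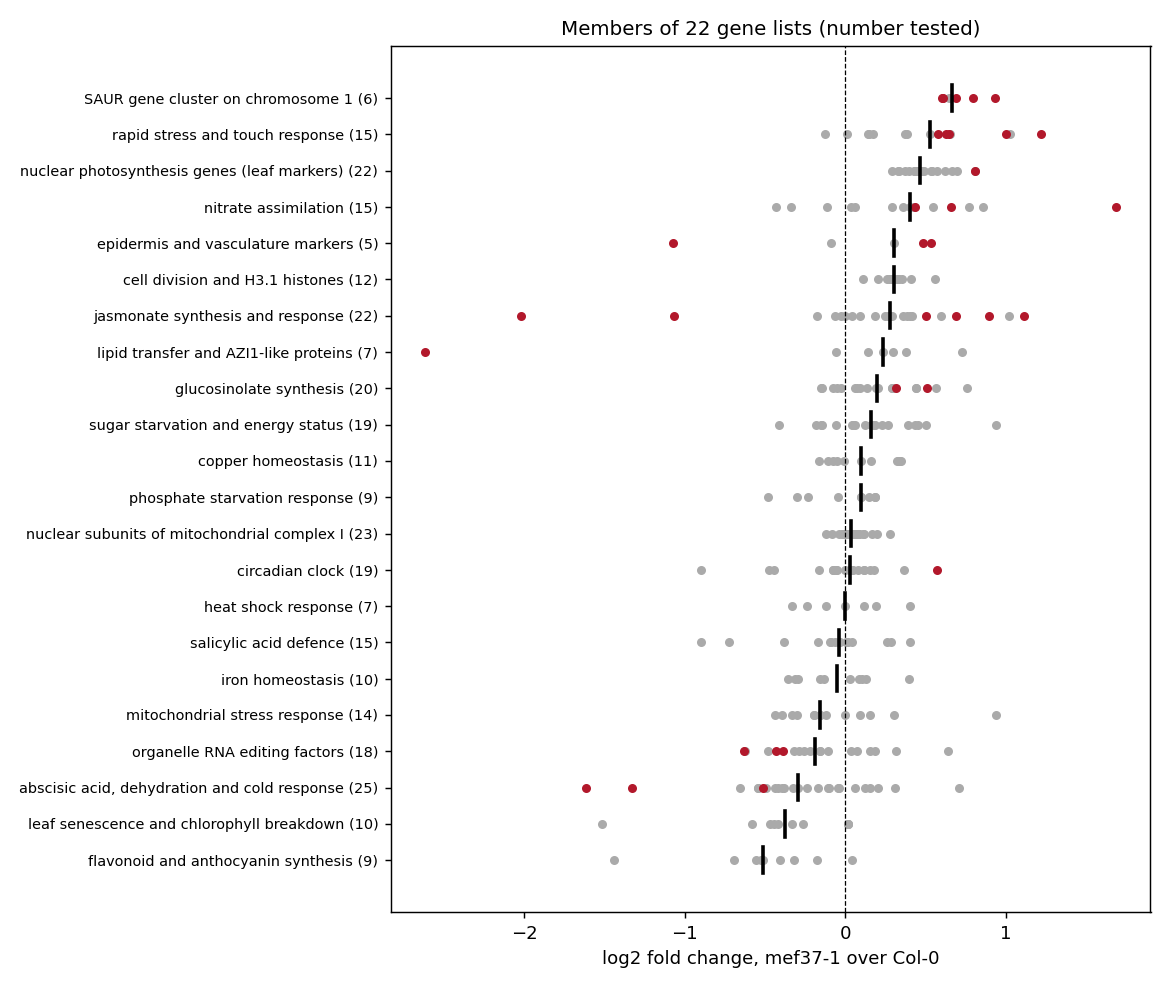
Log2 fold change of mef37-1 over Col-0 (horizontal) for each tested member of the gene lists (vertical, number tested in brackets); red points have an unadjusted p under 0.05, thick bars are list medians and the dashed line is the median over all genes tested, 0.00. Medians run from −0.51 for flavonoid synthesis to 0.67 for the SAUR cluster, and complex I subunits lie close to 0.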

How the data were processed

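Total RNA of leaves was depleted of ribosomal RNA, made into stranded libraries and sequenced; the submitters' processing notes name STAR as the aligner. The authors deposited raw counts of reads per gene and library, made with featureCounts 1.5.0-p2 on exons of the TAIR10 annotation (release 36) by strand, with reads of several positions included. Those reads can add to more than 1 gene of a family. Nothing was normalized in the deposited counts.

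The 6 libraries labelled mef37-1 and Col-0 were compared in R 4.3.3 with edgeR 4.0.16 by the quasi-likelihood test, after TMM scaling and filterByExpr, with the replicate number as a block. Calls had a p under 0.05 after Benjamini-Hochberg adjustment over every gene tested. SE is the log2 fold change divided by the square root of F. CPM use TMM library sizes. The numbers come from the titles, and same-numbered libraries of both lines deviated together from their group means across 17561 genes (Pearson r = 0.675, 0.353 and 0.543), so they were taken as pairs; whether a number marks a tray, a day or a run is not stated. Replicates of a line differed by more than sampling noise. Named were MEF37 and its 5 neighbours on each side, all called genes, the 12 higher and 12 lower leading genes of largest change with at least 20 counts on average, all members of the FLC clade and MRD1 lists, and in other lists every member with an unadjusted p under 0.05 and some of the most abundant members. FT, AT1G67105 and AT5G10690 were named outside this rule, after their values were seen. Members and lists were chosen with earlier results of these data known.

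On simulated data with this design, 30 of 50 genes changed by 1 on the log2 scale were called, 50 of 50 at 2, 49 of 50 at 3 and 49 of 50 at 5. Beside these, 15 unchanged genes were falsely called in a fit of 17409 genes, which include the changed ones, and 0 when no gene was changed. The changed genes had at least 20 counts on average and were changed together, which eases the adjusted threshold for each. The recovery therefore does not carry over to the data, where MAF4 at 2.35 did not pass (edgeR adjusted p = 0.395). Alternatives were leaving out libraries, dropping the block, DESeq2 1.42.0, RLE scaling, edgeR's likelihood ratio test, a looser and a stricter filter, organelle genes removed, a joint fit of 15 libraries, the other lines as reference, and an adjusted p of 0.01. Nuclear coordinates matched TAIR10.1 for 99.95% of 32548 genes. The mitochondrial identifiers are not paired with names in the tables used here, so these genes are given together.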

Additional observations from a re-analysis of the deposited data

Results flagged for a closer look

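AT1G75945 differed between mef37-1 and the other 3 insertion lines by a test of the difference itself, by 2.95 on the log2 scale (SE 0.29, edgeR adjusted p = 0.022). It had 0 counts in each pgn library, and without the pgn line the difference was −0.08 (SE 0.18, adjusted p = 0.9996). Without the at5g10690 line it was 4.38 (adjusted p = 0.142), and without each replicate number in turn it was 2.83 to 3.07 (adjusted p = 0.1248 to 0.266). It passed without the at3g50420 line (4.58, adjusted p = 0.0229) and with no block (2.95, adjusted p = 0.00666).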

How the results depend on the processing

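The count of 2 called genes became 1 with no replicate block, 4 with DESeq2, 17 with edgeR's likelihood ratio test, 4 with all 15 libraries in 1 fit, 0 with at least 10 reads in every library (639 at an unadjusted p under 0.05; this filter removes MAF5 and MRD1), and 0 at an adjusted p of 0.01. With libraries left out it ranged between 0 and 3. The 616 leading genes became 244 with no replicate block and 304 with DESeq2, and ranged between 512 and 1357 with libraries left out. Against the other 3 lines, alternatives added after seeing the data gave 10 genes with the likelihood ratio test, 1 without the pgn line and 0 without the at5g10690 line or, by edgeR, without any one replicate number, in place of 3. With the other lines as reference, AT1G74010 (0.14), AT1G02470 (0.48), SAUR63 (−0.047) and SAUR65 (−0.054), which had an unadjusted p under 0.05 against Col-0, changed sign, as did named genes with small differences, among them FLC (0.89), MAF3 (0.06), MSL4 (−0.11) and MUM4 (−0.01). Over all alternatives, 1218 of 1263 values of 72 named genes kept their sign. At low counts the precision limits the result: MAF5, MRD1 and AT1G75945 were each at 10 counts or fewer in every library of one group.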

Other observations

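A group noticed after the values were seen was that of the nucleolus, where ribosomal RNA is made and modified. Of 190 tested genes with this location in the notes of the RefSeq gene annotation, 24 were lower at an unadjusted p under 0.05 and 0 higher, beside 1.95% and 1.68% of all genes, with a median log2 fold change of −0.12. FIB1, a fibrillarin, the methyltransferase of ribosomal RNA, had 321, 294 and 313 counts in mef37-1, against 616, 382 and 582 in Col-0 (−0.56, SE 0.12, adjusted p = 0.978). NOP56, its partner, had 210, 185 and 189 in mef37-1, against 361, 244 and 347 in Col-0, and NUC-L1, a nucleolin, had 1180, 1497 and 1456 in mef37-1, against 1901, 1814 and 2723 in Col-0. Each of these was lower in mef37-1 in every pair, and NUC-L1 was at −0.44 (SE 0.14). They were picked from members with an unadjusted p under 0.05, where 616 of 638 genes had the same sign in every pair. The number lower in the list was 25 without Col-0 replicate 3, 9 without replicate 1 of both lines and 7, with 3 higher, without replicate 2 of both lines. Against the other 3 lines, edgeR gave 0 lower and 1 higher at an unadjusted p under 0.05 (median −0.03).

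Of 122 tested genes annotated to rRNA processing or ribosome biogenesis, which share members with that list, 9 were lower and 0 higher, with a median of −0.10. Without mef37-1 replicate 2 or Col-0 replicate 2, 11 were higher and 4 lower (median −0.01), without replicate 1 of both lines 3 were lower, and against the other 3 lines edgeR gave 0 in either direction. Of 56 tested genes annotated to the response to wounding, 4 were higher and 1 lower, with a median of 0.12, and without Col-0 replicate 2, 12 were higher and 4 lower. Over all genes, 718 were higher and 667 lower of 18067 in the fit without Col-0 replicate 2.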
